A study of Mus musculus with 12 samples.

Results

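Inguinal white adipose tissue, the subcutaneous fat of the mouse groin, was compared between mice labelled AKO and mice labelled WT that were kept at 30 °C, a temperature near thermoneutrality at which a mouse spends little energy on heat. The level used is FPKM (fragments scaled by transcript length and by library size, a level per length). Apart from genes left out by a rule given below, all those that reached 1 FPKM in at least 3 of the 6 libraries of this comparison were tested. This kept 12775 of the 24344 genes in the table. The AKO_30C group had 3 mice whose genotype label is IRE1(alpha)-/-, and the series title calls that line Ern1f/f AKO. The WT_30C group had 3 mice with the genotype label WT, and the title names an Ern1f/f line without AKO beside it. All 6 mice were of the C57BL/6J strain and aged 10 weeks, and had been housed for 4 weeks at room temperature, 6 weeks at 30 °C and 3 more days at 30 °C. In the main fit, the 6 libraries at 8 °C of the same series entered only the estimate of the spread between replicates and the rule, given below, that left out genes. The promoter that drives the deletion, and thus the cells that carry it, is not named in the labels. Every library is of whole tissue, so fewer cells of a type and less RNA per cell cannot be told apart in any value below.

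Ern1 encodes IRE1alpha, a sensor in the membrane of the endoplasmic reticulum that, on sensing unfolded proteins, splices the mRNA of Xbp1, and the spliced product XBP1s is a transcription factor for chaperones and secretory genes. White fat holds adipocytes, which store triglyceride, together with a stromal vascular fraction of fibroblasts, adipocyte progenitors, vessels, macrophages, mast cells and lymphocytes. Pi16-expressing cells of the interstitial septa are known as early progenitors that can give rise to preadipocytes, and macrophages with Folr2, Mrc1 and Lyve1 are known as tissue-resident ones. At 30 °C the sympathetic drive to fat is low, and thermogenic genes such as Ucp1 are weakly expressed.

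Ern1 lies at chromosome 11, 106394650 to 106487852 (GRCm38) and had 4.5005, 4.24 and 3.45 FPKM in the AKO-labelled libraries, against 2.53, 3.32 and 2.97 FPKM in the WT-labelled ones. The gene named in the genotype was therefore no lower in AKO-labelled fat, where all 3 values exceeded those of the other group (a log2 fold change of 0.36 (SE 0.12, limma adjusted p = 0.189)). A level summed over all exons cannot show whether some exons were removed, so genotypes are given here only as the labels state them, and each direction below is that of AKO-labelled over WT-labelled libraries. The 6 libraries had summed values of 594202 to 643401 FPKM, 12575 to 12818 genes at 1 FPKM or more, and correlations across genes of log2(FPKM + 1) of 0.979 to 0.988 within a group and 0.964 to 0.986 between groups. On the first principal component, with 44.1% of the variance, the AKO-labelled libraries lay at 11.996, 10.1 and 28.2, against -21.9, -7.70 and -20.8 for the WT-labelled ones. AKO_30C replicate 3 thus stood farthest from the WT-labelled libraries, and WT_30C replicate 2 nearest to the AKO-labelled ones. The defining adipocyte genes were high throughout, for example Plin1, the main lipid droplet coat protein, at 639, 665 and 531 against 520.3, 653 and 375 FPKM. Xist was at or under 0.0491 FPKM and the Y-linked Ddx3y at 14.6 FPKM or more in all 6 libraries. The number of reads behind a value is unknown, because the table holds no counts.

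The genes called higher in fat of AKO-labelled mice at 30 °C included members of the stromal progenitor and fibroblast, resident macrophage and mast cell lists, while adipocyte, thermogenic and unfolded protein response genes did not pass the test. Of 12775 genes tested with limma, 102 (0.798%) were higher and 8 (0.0626%) were lower in the AKO-labelled libraries at a Benjamini-Hochberg adjusted p of 0.05, which is 0.861% in either direction. The log2 fold change, a difference of group means of log2(FPKM + 1), ran from 0.47 to 4.05 among the 102 higher genes with a median of 1.46, and 80 of them exceeded 1, while the median of all tested genes was -0.05. At a nominal p (one not adjusted for multiple testing) below 0.05, 863 genes (6.76%) were higher and 997 (7.8%) lower. Of all tested genes, called or not, 167 had a log2 fold change above 1 and 19 had a value below -1. AKO_30C replicate 3 was the highest library in 151 of the 167. The shares over all tested genes given here are those to set beside the counts of each list below. The groups did not overlap for any of the 110 called genes, nor for 2441 (19.1%) of all tested genes, 1048 (8.2%) with the AKO-labelled libraries above and 1393 (10.9%) with them below.

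The calls were few, with adjusted p between 0.0278 and 0.0499, and they depended on single libraries. Without AKO_30C replicate 3, WT_30C replicate 1, WT_30C replicate 2 or WT_30C replicate 3, limma called 1, 0, 0 and 1 genes, with 1163, 1151, 2702 and 1284 genes at a nominal p below 0.05. Without AKO_30C replicate 1 or AKO_30C replicate 2, limma called 32 and 29 genes, of which 31 and 27 were among the 110. AKO_30C replicate 3 held the highest value of its group for 93 of the 102 higher genes, and the median log2 ratio of those genes to their WT mean was 1.25, 1.19 and 1.92 in AKO_30C replicates 1, 2 and 3. These ratios describe genes chosen for being called and support nothing further. Of the 102, 11 passed the filter through the AKO-labelled libraries alone, all 3 WT-labelled values being under 1 FPKM, as did 53 of all tested genes. Such a gene had to differ to be tested, so its call is no support for a list, and without these and the 11 that passed through the WT-labelled libraries alone, 91 of 12711 genes (0.716%) were called higher. Of the 11 called ones, Stmn4, Sfrp4, Mrgprg, C6, Ms4a8a, Dpep2, Smpd3, Edn1, Lrrc17 and Krtdap are named below. The limit holds for each of them there, also where it is not repeated. The resident macrophage, general macrophage, complement and adipogenic regulator lists each held 1 tested member of this kind, and 0 of these were called.

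**Figure D1:**
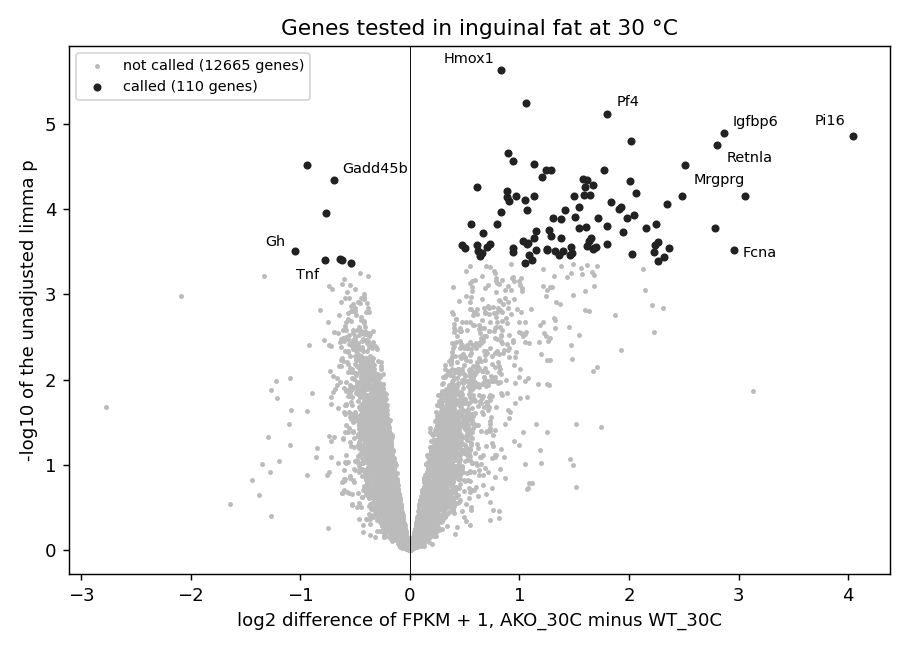
Each point is 1 of the 12775 tested genes, with the log2 difference of FPKM + 1 (AKO_30C minus WT_30C) on the x axis and -log10 of the unadjusted limma p on the y axis, called genes in black. The 102 genes called higher reach a difference of 4.05 at Pi16, whereas the 8 called lower reach -1.05 at Gh.

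Genes of interstitial progenitors were among the largest differences. Of 16 tested genes of the interstitial progenitor list, 5 rose (Pi16, Cd248, Ackr3, Stmn4 and Cd34), against 0.798% of all tested genes. At a nominal p below 0.05, 12 were higher, against 6.76% of all, and the median log2 fold change of the 16 was 1.26. Stmn4 and Dact2 passed the filter through the AKO-labelled libraries alone, and of the other 14 genes 4 rose, 10 were higher at a nominal p below 0.05 and the median was 1.06. Pi16, a secreted peptidase inhibitor that marks these progenitors, lies at chromosome 17, 29317680 to 29330593 (GRCm38). It had 57.8, 89.9 and 167 FPKM in the AKO-labelled libraries, against 5.49, 3.897 and 5.28 FPKM in the WT-labelled ones. Its lowest AKO-labelled value was more than 10 times its highest WT-labelled value, and the group means were 105 ± 56.3 and 4.89 ± 0.866 FPKM (SD, n = 3 each), a log2 fold change of 4.05 (SE 0.58, limma adjusted p = 0.0278). With any 1 library left out, its log2 fold change was 3.64 to 4.40. The 250 bases before the start that RefSeq gives (GRCm38.p6), on the gene's strand, are printed as the promoter of the gene with the largest difference. The motifs searched on both strands in all promoters were the TATA box with the letters TATAAA, the CCAAT box, the half-element CCACG, the AP-1 motif with the letters TGANTCA, and the endoplasmic reticulum stress response element, in which the half-element follows a CCAAT box at a fixed gap so that it overlaps both, and matches stand in capitals.
Pi16 (chr17:29318632-29318881, plus strand): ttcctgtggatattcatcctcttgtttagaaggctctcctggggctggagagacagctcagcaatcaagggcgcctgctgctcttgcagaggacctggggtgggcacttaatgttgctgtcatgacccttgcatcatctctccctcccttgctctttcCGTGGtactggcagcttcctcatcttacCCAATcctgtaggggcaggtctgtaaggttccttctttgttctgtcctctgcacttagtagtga
RefSeq places the start of Pi16 downstream of the GENCODE start, so that all 250 bases lie inside the interval given above. This window held 1 CCACG match, on the opposite strand, and 1 CCAAT match, motifs found in 28.3% and 33.8% of 32851 promoters of the same length. The 84 promoters matched to 73 of the genes called higher held them at 23.8% and 29.8%, and the AP-1 motif stood in 10.7% of these against 6.75% of all promoters.

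Cd248, a surface glycoprotein of stromal cells also called endosialin, had 9.18, 16.3 and 38.3 FPKM in the AKO-labelled libraries, against 2.17, 3.01 and 2.097 FPKM in the WT-labelled ones, a log2 fold change of 2.49 (SE 0.42, limma adjusted p = 0.0278). Ackr3, a scavenging chemokine receptor, had 18.3, 17.5 and 33.1 FPKM in the AKO-labelled libraries, against 6.03, 6.12 and 6.88 FPKM in the WT-labelled ones, a log2 fold change of 1.65 (SE 0.32, limma adjusted p = 0.0424). In neither gene did the groups overlap, and AKO_30C replicate 3 was the highest library in both. Stmn4, a microtubule regulator of the stathmin family, was close to 0 in WT-labelled libraries, with 1.501, 2.24 and 2.59 against 0, 0.114 and 0.0477 FPKM. Cd34, a surface sialomucin of progenitors and endothelium, had 37.1, 37.6 and 62.4 FPKM in the AKO-labelled libraries, against 13.7, 13.7 and 19.1 FPKM in the WT-labelled ones (a log2 fold change of 1.47 (SE 0.29, limma adjusted p = 0.0429)). Fn1, which encodes the matrix protein fibronectin, had 22.5, 27.2 and 75.8 against 7.31, 7.16 and 6.55 FPKM and did not pass the test (adjusted p = 0.0831), its AKO_30C replicate 3 standing well above replicates 1 and 2. Ly6c1, a surface protein that endothelium also carries, held 48% of the summed level of this list, and that sum was 476, 518 and 896 FPKM in the AKO-labelled libraries, against 258, 260.2 and 287 FPKM in the WT-labelled ones.

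Of 18 tested members of the fibroblast list 4 rose (Dcn, Cd34, Mgp and Clec3b), against 0.798% of all tested genes. Higher at a nominal p below 0.05 were 16, against 6.76% of all. The median was 1.14, or 0.89 to 1.27 with 1 library left out. Clec3b, which encodes the secreted plasminogen-binding protein tetranectin, had 228, 270.3 and 367 FPKM in the AKO-labelled libraries, against 83.7, 81.2 and 76.9 FPKM in the WT-labelled ones (a log2 fold change of 1.80 (SE 0.33, limma adjusted p = 0.0369)). Dcn, the collagen-binding proteoglycan decorin, had 223, 180.3 and 389.8 against 93.1, 105 and 109 FPKM and a log2 fold change of 1.28. Mgp, an inhibitor of calcification, had 39.8, 37.7 and 41.2 against 17.98, 23.1 and 24.6 FPKM and the smallest change of these, 0.84 on the log2 scale, with AKO_30C replicate 3 close to the others of its group. Pdgfra, the receptor that defines adipose fibroblasts, had 7.37, 6.29 and 9.899 against 4.49, 4.41 and 4.699 FPKM without overlap, but missed the threshold (log2 fold change 0.66, adjusted p = 0.102). The preadipocyte list had 0 of 11 called and a median of 0.20, with 1 higher and 1 lower at a nominal p below 0.05. Its summed level is mostly Fabp4, at 80%. Of its members, Fabp4, Pparg, Cd36 and Lpl are also in the adipocyte list, Apoe in the general macrophage list and Sdc1 in the plasma cell list. In whole tissue its values therefore do not single out preadipocytes. A difference between the progenitor and preadipocyte lists was not tested.

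Further called genes, in none of the lists, were chosen after their values were seen and carry no count or test as a group. Scara5, a ferritin receptor, had 13.2, 15.3 and 38.8 against 3.06, 4.06 and 3.42 FPKM, and Procr, the protein C receptor, had 21.8, 21.3 and 45.3 against 4.64, 6.57 and 7.31 FPKM. Fndc1, a fibronectin domain protein, had 7.43, 8.82 and 19.4 against 1.45, 1.58 and 1.15 FPKM. These 3 genes lay at least 2-fold higher in every AKO-labelled library than in any WT-labelled one. Lrrn4cl, Adgrd1, an adhesion receptor, and Pla1a, a phospholipase, had log2 fold changes of 2.34, 2.06 and 1.98. Prrx1, a homeobox factor of mesenchymal cells, rose by less, with 7.28, 7.52 and 10.3 against 3.61, 3.77 and 4.72 FPKM and a log2 fold change of 0.89. Markers of mesothelium, another source of fat matrix, were near absent, with 0 of 10 genes tested, Upk3b and Bnc1 at 0 in all 6 libraries and a summed level of 1.73, 2.46 and 2.68 FPKM in the AKO-labelled libraries, against 1.605, 1.32 and 2.77 FPKM in the WT-labelled ones.

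**Figure D2:**
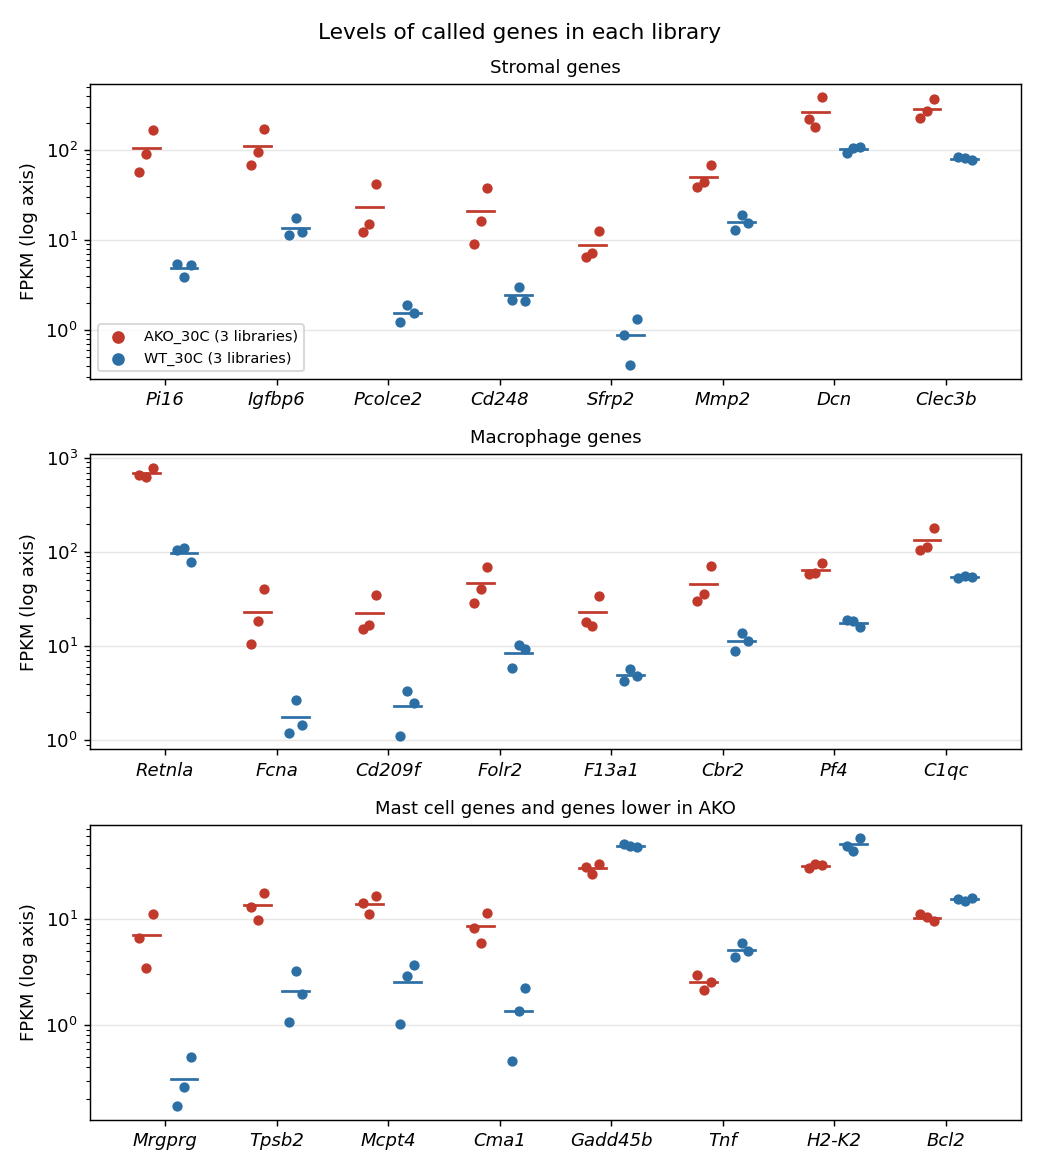
Points are the FPKM of each library on a log axis and short lines are group means, with the 3 AKO_30C libraries left of the 3 WT_30C libraries for each gene. No group overlap is seen for any of the 24 called genes, Pi16 having 57.8, 89.9 and 167 FPKM against 5.49, 3.90 and 5.28 FPKM.

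Of the matrix lists, those of processing enzymes, elastic fibres and small proteoglycans held genes called higher and that of collagens held 0, a contrast that was not tested. Among 16 tested collagen genes 0 were called, 9 were higher at a nominal p below 0.05 and all 16 had a positive log2 fold change, with a median of 0.71. Col1a1, a chain of type I collagen, had 140.00, 158 and 245 FPKM in the AKO-labelled libraries, against 61.6, 89.1 and 43.9 FPKM in the WT-labelled ones, which is 1.48 on the log2 scale (adjusted p = 0.155). Col3a1, of type III collagen, had 249.9, 240.3 and 382 against 118, 161 and 86.4 FPKM (log2 fold change 1.26, adjusted p = 0.125). The WT-labelled libraries themselves spread widely in these genes, WT_30C replicate 2 being highest and replicate 3 lowest in both.

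Of 25 tested genes of matrix processing, 7 rose and 15 were higher at a nominal p below 0.05, against 0.798% and 6.76% of all. Their median was 0.76. Pcolce2 and Pcolce enhance the cleavage of procollagen by Bmp1, and all 3 were called. Pcolce2 had 12.2, 15.3 and 42.6 FPKM in the AKO-labelled libraries, against 1.23, 1.88 and 1.53 FPKM in the WT-labelled ones, a log2 fold change of 3.06 (SE 0.52, limma adjusted p = 0.0278). Pcolce had 47.5, 59.04 and 90.9 against 30.2, 31.5 and 29.6 FPKM and Bmp1 19.1, 18.3 and 28.2 against 8.42, 10.98 and 9.8995 FPKM, with log2 fold changes of 1.03 and 1.07. Adamts2, which removes the amino-terminal propeptide of procollagen, had 7.95, 7.44 and 13.02 against 3.77, 4.55 and 2.94 FPKM and a log2 fold change of 1.12. Loxl1, a crosslinking oxidase of elastin and collagen, had 12.8, 18.2 and 30.4 against 6.305, 7.802 and 4.61 FPKM and a log2 fold change of 1.51. The matrix proteases Mmp2 and Mmp3 also rose, Mmp2 with 39.1, 44.01 and 68.9 against 13.1, 19.1 and 15.5 FPKM and Mmp3 with 17.8, 13.4 and 17.2 against 6.27, 7.805 and 7.64 FPKM, at log2 fold changes of 1.58 and 1.05. Timp2, an inhibitor of such proteases, had 84.1, 84.8 and 175 against 32.97, 32.9 and 37.9 FPKM and just missed the threshold (adjusted p = 0.0503). AKO_30C replicate 3 was well above the others of its group in Timp2, whereas in Mmp3 it was not the highest.

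Elastic fibre genes had 3 of 15 called, a median of 0.78, and 11 higher at a nominal p below 0.05. They were Emilin2, with 6.24, 8.196 and 17.3 against 1.25, 1.53 and 1.05 FPKM, the fibulin Efemp1, with 23.7, 21.9 and 44.2 against 7.68, 8.83 and 8.14 FPKM, and the microfibril protein Mfap2, with 8.31, 10.03 and 13.9 against 4.25, 3.81 and 3.58 FPKM. Their log2 fold changes were 2.24, 1.68 and 1.24. Eln, elastin itself, had 21.3, 25.6 and 37.9 against 14.5, 21.3 and 16.4 FPKM with overlap at 21.3 FPKM, and did not pass (adjusted p = 0.243). Small proteoglycans and matricellular proteins had 2 of 19 called, Dcn and Abi3bp, and a median of 0.67. Sparc, the collagen-binding glycoprotein that holds 48% of that list's summed level, had 681, 577 and 872 against 451, 520.1 and 358 FPKM (log2 fold change 0.67, adjusted p = 0.112).

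Secreted regulators of Wnt, insulin-like growth factor and BMP signals had 6 of 18 tested members called, all higher, against 0.798% of all tested genes. The list had 15 higher at a nominal p below 0.05, against 6.76% of all, and a median of 0.70. Without Sfrp4, which passed the filter through the AKO-labelled libraries alone, 5 of 17 were called, 14 were higher at a nominal p below 0.05 and the median was 0.53. Igfbp6, which binds IGF2 in particular, had 68.98, 95.8 and 171 FPKM in the AKO-labelled libraries, against 11.3, 17.5 and 12.2 FPKM in the WT-labelled ones, a log2 fold change of 2.87 (SE 0.41, limma adjusted p = 0.0278). Igfbp5 had 34.6, 46.4 and 56.2 against 17.9, 16.3 and 21.1 FPKM, a log2 fold change of 1.25. Both binding proteins were without overlap between groups, but only Igfbp6 differed by more than 2 on the log2 scale. Sfrp2 and Sfrp4, secreted proteins that bind Wnt ligands, were near or under 1 FPKM in WT-labelled fat. Sfrp2 had 6.56, 7.197 and 12.6 against 0.892, 0.406 and 1.32 FPKM and Sfrp4 4.502, 4.05 and 8.84 against 0.445, 0.264 and 0.339 FPKM, with log2 fold changes of 2.36 and 2.27. Nbl1, a BMP antagonist, had 14.5, 15.4 and 27.000 against 5.302, 6.03 and 8.17 FPKM, and Gas6, the ligand of TAM receptors, had 56.4, 63.8 and 82.6 against 26.1, 35.2 and 29.2 FPKM. Gdf10, a BMP-related ligand outside that list, had 9.12, 6.801 and 9.75 against 1.55, 2.57 and 1.34 FPKM and a log2 fold change of 1.77, and Fstl1, a follistatin-like glycoprotein, had 38.7, 37.7 and 70.3 against 14.1, 15.6 and 14.3 FPKM and 1.61. TGF-beta pathway genes were closer between the groups, with 0 of 15 called, 4 higher at a nominal p below 0.05 and a median of 0.13. Tgfb1 itself had 43.9, 46.998 and 55.1 against 57.3, 52.7 and 54.1 FPKM, overlapping between the groups.

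Resident macrophage genes held the largest share of calls of any list with at least 5 tested members. The lists were chosen with earlier results of these data known, so this rank and the counts are description only. Of 19 tested genes 11 rose (Retnla, Fcna, Cd209f, Folr2, F13a1, Cbr2, Pf4, Mrc1, Ccl8, Gas6 and C4b) and 18 were higher at a nominal p below 0.05, against 0.798% and 6.76% of all tested genes. The list's median was 1.60, or 1.31 to 1.82 with 1 library left out. Its summed level was 1221, 1241 and 1736 FPKM in the AKO-labelled libraries, against 336, 394 and 347 FPKM in the WT-labelled ones, of which Retnla made 45%. Gas6 and C4b are also made by fibroblasts.

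Retnla, a secreted protein of alternatively activated macrophages that is also reported in mouse fat stroma, lies at chromosome 16, 48842551 to 48844461 (GRCm38). It had 655, 622 and 792 FPKM in the AKO-labelled libraries, against 105, 111 and 79.04 FPKM in the WT-labelled ones, the highest level among the genes called, and a log2 fold change of 2.80 (SE 0.41, limma adjusted p = 0.0278). Its AKO-labelled values lay within a narrow range and AKO_30C replicate 3 did not stand apart. The promoter of Retnla, shown because it is the called gene with the highest level, and that of the mast cell protease Mcpt4, the most abundant mast cell gene of its list, are given over the 250 bases before the RefSeq start, of which 58 and 3 lie inside the gene as GENCODE places it.
Retnla (chr16:48842359-48842608, plus strand): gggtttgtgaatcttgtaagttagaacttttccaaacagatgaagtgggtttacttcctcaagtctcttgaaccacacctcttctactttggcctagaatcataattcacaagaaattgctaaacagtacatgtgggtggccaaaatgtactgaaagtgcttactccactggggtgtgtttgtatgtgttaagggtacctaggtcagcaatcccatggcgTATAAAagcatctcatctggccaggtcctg
Mcpt4 (chr14:56062311-56062560, minus strand): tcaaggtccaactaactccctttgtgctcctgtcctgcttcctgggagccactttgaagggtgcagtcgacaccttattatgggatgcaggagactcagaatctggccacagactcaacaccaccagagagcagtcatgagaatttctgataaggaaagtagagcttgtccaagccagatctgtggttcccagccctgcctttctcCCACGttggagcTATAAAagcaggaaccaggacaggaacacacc
Each window held 1 TATAAA match near its 3′ end, a motif found in 12.4% of all promoters and in 16.7% of those of the genes called higher, and Mcpt4 also held 1 CCACG match.

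Fcna, a ficolin of macrophages that binds microbial sugars, had 10.5, 18.4 and 40.3 FPKM in the AKO-labelled libraries, against 1.2004, 2.66 and 1.45 FPKM in the WT-labelled ones (a log2 fold change of 2.96 (SE 0.59, limma adjusted p = 0.0429)). Cd209f, a lectin receptor, had 15.3, 16.9 and 34.9 against 1.12, 3.32 and 2.51 FPKM, a log2 fold change of 2.78. Folr2, the folate receptor of resident macrophages, had 28.96, 40.7 and 69.99 against 5.85, 10.2 and 9.37 FPKM, a log2 fold change of 2.27. All 3 genes were at least 2-fold apart between the nearest libraries of the groups, and all were highest in AKO_30C replicate 3. F13a1, a coagulation transglutaminase, had 18.2, 16.3 and 33.9 against 4.27, 5.698 and 4.78 FPKM and a log2 fold change of 1.94. Cbr2, a carbonyl reductase, had 30.3, 35.9 and 71.7 against 8.97, 13.95 and 11.4 FPKM and 1.83. Pf4, a chemokine also known from platelets, had 57.9, 59.8 and 76.98 against 18.9, 18.4 and 16.1 FPKM and 1.80, with the WT-labelled values close together. Mrc1, the mannose receptor, was lower in level but also without overlap, with 9.76, 8.54 and 16.3 against 3.14, 4.12 and 3.05 FPKM and a log2 fold change of 1.46. Lyve1, also a lymphatic marker, had 8.74, 6.59 and 27.8 against 1.297, 2.51 and 2.03 FPKM and did not pass the test (adjusted p = 0.067), AKO_30C replicate 3 being more than 3-fold above the others of its group. Timd4, a phosphatidylserine receptor of long-lived macrophages, had 9.38, 6.85 and 11.7 against 5.82, 6.58 and 7.498 FPKM with overlap (adjusted p = 0.476). Cd209f, Cd209b, Cd209d and Cd209g are related genes, so reads may have been divided among them where they are alike, and their single values are uncertain.

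Pan-macrophage genes moved less. Of 17 tested 1 rose, the complement gene C1qc, and 12 were higher at a nominal p below 0.05, with a median of 0.63. C1qc had 106, 114 and 182 FPKM in the AKO-labelled libraries, against 52.7, 55.4 and 53.7 FPKM in the WT-labelled ones (a log2 fold change of 1.25 (SE 0.25, limma adjusted p = 0.0429)). Csf1r, the growth factor receptor of macrophages, had 27.5, 25.7 and 37.6 against 13.6, 15.7 and 13.4 FPKM and Adgre1, which encodes F4/80, had 5.76, 4.92 and 7.19 against 2.63, 2.42 and 1.93 FPKM, with adjusted p of 0.0657 and 0.115. Both separated the groups without passing the test. Genes of lipid-associated macrophages, which surround dying adipocytes, had 1 of 11 called, 3 higher at a nominal p below 0.05 and a median of 0.27. Log2 fold changes of the members ran from -0.58 to 1.56. The called one was Ctsk, a collagen-degrading cathepsin that fibroblasts also make, with 25.98, 24.2 and 33.3 against 12.1, 15.3 and 10.3 FPKM. Gpnmb, a member of this list, had 3.07, 2.09 and 2.96 against 0.985, 1.62 and 1.85 FPKM and an adjusted p of 0.187. Lpl, with 59% of the summed level, and Cd36 are also in the adipocyte list. Trem2 and Marco were not called here. The authors' deposited table lists them as significantly higher, at 6.15 and 16.9 FPKM in AKO against 1.82 and 5.46 FPKM in WT. It lists Fabp5, also of this list, as significantly lower, at 112 against 178 FPKM. Monocyte genes had 0 of 8 called and a median of -0.07, which was -0.23 to 0.03 with 1 library left out. A difference in response between resident and pan-macrophage genes was not tested.

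**Figure D3:**
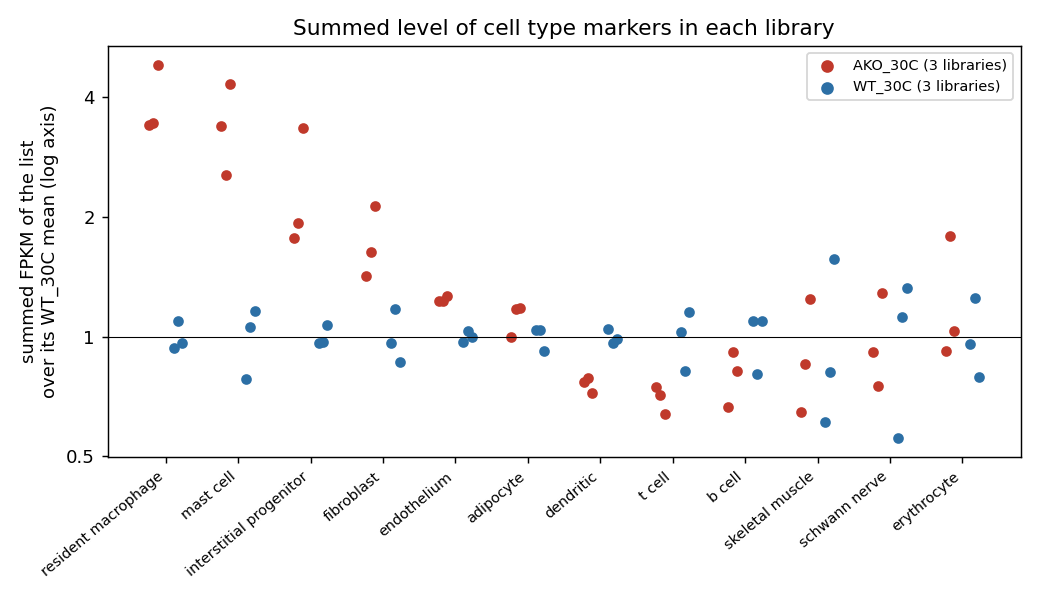
Points are the summed FPKM of each marker list in each library, divided by the list's WT_30C mean, on a log axis, with the AKO_30C libraries left of the WT_30C ones. Resident macrophage sums are 1221, 1241 and 1736 FPKM in AKO_30C against 336, 394 and 347 FPKM in WT_30C, while muscle, nerve and erythrocyte sums overlap between the groups.

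Further genes called higher are given by what each is known for, chosen after their values were seen, and carry no count or test as a group. Mgl2, a galactose lectin of macrophages and dendritic cells, had 27.7, 28.3 and 33.6 against 12.3, 12.97 and 7.47 FPKM, and Cd209b had 22.4, 14.6 and 20.3 against 2.28, 8.66 and 6.51 FPKM. Fcgr3, a low-affinity IgG receptor, had 17.3, 17.6 and 28.1 against 10.3, 9.29 and 7.16 FPKM, and Il1r2, the decoy receptor of interleukin 1, had 10.1, 9.103 and 23.8 against 1.96, 2.55 and 2.88 FPKM. Their log2 fold changes were 1.40, 1.68, 1.13 and 2.03. Dab2, an endocytic adaptor, Ms4a8a and Ifi204, an interferon-inducible DNA sensor of a family of close copies, rose by 1.08, 1.61 and 1.29 on the log2 scale. Hmox1, haem oxygenase, which macrophages use to degrade haem, had 23.96, 24.1 and 29.2 FPKM in the AKO-labelled libraries, against 13.1, 13.4 and 15.3 FPKM in the WT-labelled ones, a tight difference of 0.84 (SE 0.10, limma adjusted p = 0.0278).

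Several mast cell genes rose. Of 9 tested genes 4 rose (Mrgprg, Tpsb2, Mcpt4 and Cma1), against 0.798% of all tested genes. Members higher at a nominal p below 0.05 numbered 7, against 6.76% of all, and the median was 1.34. Mrgprg, Cpa3 and Hdc passed the filter through the AKO-labelled libraries alone, and of the other 6 genes 3 rose, 4 were higher at a nominal p below 0.05 and the median was 1.23. Mcpt4, a chymase stored in the granules of connective tissue mast cells, had 14.2, 11.1 and 16.6 FPKM in the AKO-labelled libraries, against 1.03, 2.88 and 3.698 FPKM in the WT-labelled ones, a log2 fold change of 2.15 (SE 0.40, limma adjusted p = 0.0369). Tpsb2, a tryptase, had 12.97, 9.69 and 17.6 against 1.07, 3.24 and 1.98 FPKM, a log2 fold change of 2.24. Cma1, another chymase, had 8.15, 5.89 and 11.5 against 0.461, 1.37 and 2.25 FPKM, a log2 fold change of 2.04. In all 3 proteases the AKO-labelled libraries lay at more than 2 times the highest WT-labelled value, and WT_30C replicate 1 was the lowest library. Mrgprg, a Mas-related receptor, had 6.63, 3.42 and 11.2 against 0.172, 0.263 and 0.502 FPKM and a log2 fold change of 2.51. Cpa3, the mast cell carboxypeptidase, was not called at 2.83, 1.67 and 4.801 against 0.482, 0.546 and 0.603 FPKM (adjusted p = 0.0803). Kit, the stem cell factor receptor that mast cells need, had 3.44, 3.397 and 2.49 against 3.85, 4.17 and 3.49 FPKM and a log2 fold change of -0.24. The IgE receptor genes Ms4a2 and Fcer1a, which define mast cells, stayed under 1 FPKM in all 6 libraries, as did Tpsab1, a close copy of Tpsb2. The summed level of the list was 59.8, 44.9 and 76.2 FPKM in the AKO-labelled libraries, against 13.8, 18.6 and 20.5 FPKM in the WT-labelled ones. Mcpt4 and Cma1 lie 115 kb apart on chromosome 14.

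Complement and chemokine genes were among those called higher. Of 17 tested complement genes 3 rose, among them C1qc and C4b, and 12 were higher at a nominal p below 0.05. These shares were 0.798% and 6.76% over all tested genes, and the complement median was 0.79. C4b, a component of the classical pathway, had 148, 195 and 232 against 86.6, 106 and 103 FPKM and a log2 fold change of 0.94, while its close copy C4a stayed under 1 FPKM in all 6. C6, a component of the membrane attack complex outside that list, was called, with 2.34, 1.68 and 2.21 against 0.201, 0.486 and 0.324 FPKM, and was tested only because its AKO-labelled values reached 1 FPKM. In addition, 3 chemokine genes of chromosome 11 were called. Ccl8 had 67.9, 45.2 and 80.5 against 20.4, 23.02 and 25.6 FPKM, Ccl9 13.8, 9.64 and 22.5 against 4.56, 4.34 and 4.06 FPKM and Ccl6 51.6, 47.9 and 100.4 against 18.3, 17.1 and 10.5 FPKM, with log2 fold changes of 1.42, 1.54 and 2.01. Ccl6 and Ccl9 lie 9.25 kb apart and are similar in sequence, and the called Wfdc17, with 22.005, 31.8 and 36.3 against 8.84, 6.43 and 8.21 FPKM, lies 111 kb from Ccl6.

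The inflammatory list as a whole had 2 of 17 higher, 1 lower and a median of 0.03, which ran from -0.10 to 0.29 with 1 library left out. Tnf, the inflammatory cytokine, was the one lower, with 2.98, 2.16 and 2.57 FPKM in the AKO-labelled libraries, against 4.42, 5.91 and 5.02 FPKM in the WT-labelled ones, a log2 fold change of -0.78 (SE 0.16, limma adjusted p = 0.0472). Its levels were low, but no AKO-labelled library reached the lowest WT-labelled one. Il1b, Il6, Il10, Ccl3, Cxcl2 and Ptgs2 stayed under 1 FPKM in all 6 libraries. Ccl5, a chemokine of T cells, made 60% of the list's summed level and had 463, 426 and 408 against 664, 552 and 598 FPKM (log2 fold change -0.48, adjusted p = 0.219). Interferon response genes had 0 of 22 called and a median of -0.11, from -0.20 to 0.08 with 1 library left out.

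No gene of the T cell, B cell or natural killer lists was called. Of 16 tested T cell genes 0 were called, 13 were lower at a nominal p below 0.05 against 7.8% of all genes, and all 16 had a negative log2 fold change, with a median of -0.48. Cd3d, a chain of the T cell receptor complex, had 53.3, 46.9 and 49.1 FPKM in the AKO-labelled libraries, against 72.8, 60.5 and 84.3 FPKM in the WT-labelled ones, a log2 fold change of -0.52 (adjusted p = 0.114). Cd8a had 36.6, 32.2 and 32.2 against 54.2, 42.2 and 60.6 FPKM and -0.61 (adjusted p = 0.122), and Lat, an adaptor of T cell signalling, had 118, 111 and 99.6 against 163, 134 and 195 FPKM and -0.57 (adjusted p = 0.0901). In these 3 genes all AKO-labelled values lay below all WT-labelled ones, yet none passed over all genes. The summed level of the list was 717, 685 and 615 FPKM in the AKO-labelled libraries, against 986, 787 and 1105 FPKM in the WT-labelled ones. Dendritic cell genes had 0 of 12 called, 5 lower at a nominal p below 0.05 and a median of -0.26. Ccr7, the receptor that guides dendritic cells and naive T cells to lymph nodes, had 69.7, 77.3 and 65.4 against 104, 92.3 and 103 FPKM (log2 fold change -0.49, adjusted p = 0.187). Natural killer and innate lymphoid genes had 0 of 7 called, 3 lower at a nominal p below 0.05 and a median of -0.27.

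B cell genes were abundant in every library, with Cd79b, a chain of the B cell receptor, at 210.3, 281 and 251 against 325, 272 and 347 FPKM. The list had 0 of 13 called, 1 lower at a nominal p below 0.05 and a median of -0.34, and its sums overlapped, at 926, 1274 and 1142 FPKM in the AKO-labelled libraries, against 1523, 1122 and 1525 FPKM in the WT-labelled ones. The inguinal pad contains a lymph node, and genes of lymph node stroma were present in every library, Ccl21a, the chemokine of its T cell zone, at 419.95, 399 and 353 against 481, 416 and 497 FPKM. The lymph node stroma list had 1 of 11 called, Pdpn, a membrane mucin that fibroblasts also carry, with 4.56, 4.62 and 7.52 against 1.69, 1.98 and 2.58 FPKM, and a median of -0.07. Its summed level was 1208, 1310.0 and 1115 FPKM in the AKO-labelled libraries, against 1444, 1202 and 1356 FPKM in the WT-labelled ones, with overlap between the groups. Cell cycle genes had 0 of 16 called and a median of -0.24, and plasma cell genes 0 of 5 and -0.09. The part of lymph node tissue in the lymphocyte values, and in the share of stromal and macrophage RNA, was not tested.

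Other cells of the tissue were closer between the groups. Endothelial genes had 1 of 14 called, Tek, the angiopoietin receptor, with 8.07, 6.89 and 8.72 FPKM in the AKO-labelled libraries, against 3.39, 3.98 and 4.06 FPKM in the WT-labelled ones, a log2 fold change of 0.88 (SE 0.15, limma adjusted p = 0.0278). The endothelial median was 0.30, 7 members were higher at a nominal p below 0.05, and the sums were 393, 395 and 406 FPKM in the AKO-labelled libraries, against 310.2, 331 and 321 FPKM in the WT-labelled ones, without overlap. Pecam1, the pan-endothelial adhesion molecule, had 54.8, 58.4 and 62.6 against 52.3, 53.5 and 57.2 FPKM with overlap. Smooth muscle and pericyte genes had 0 of 11 called, 4 higher at a nominal p below 0.05 and a median of 0.31. Lymphatic endothelial genes had 1 of 5 called, again Pdpn, and a median of 0.11. Schwann cell genes had 0 of 9 called at a median of 0.06, and erythrocyte genes 0 of 3 at 0.35. Skeletal muscle genes were present in all libraries, with 0 of 14 called, a median of -0.06 and sums of 4072, 5377 and 7825 FPKM in the AKO-labelled libraries, against 3850.4, 5146 and 9902 FPKM in the WT-labelled ones. The muscle sums spread more within each group than between them. Of 15 mammary epithelial genes 3 were tested, 0 were called, and Krt5, Krt14, Csn1s1 and Csn3 were at or near 0.

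Neutrophil genes stood apart in 1 library. S100a8, a calprotectin subunit of neutrophils, had 2.69, 7.55 and 25.7 against 1.72, 0.987 and 0.506 FPKM, and its partner S100a9 had 0.6696, 2.26 and 23.2 against 0.949, 2.05 and 0 FPKM, both highest in AKO_30C replicate 3. Neither passed the test (adjusted p = 0.115 and 0.437), and 0 of 4 tested members of that list were called. The neutrophil sums were 6.51, 14.7 and 63.9 FPKM in the AKO-labelled libraries, against 5.95, 8.84 and 3.899 FPKM in the WT-labelled ones. Eosinophil genes were almost absent, with 1 tested, Ear2, at 7.92, 5.67 and 18.3 against 6.63, 7.13 and 1.34 FPKM, and Siglecf, Ccr3, Epx and Prg2 under 1 FPKM in all 6 libraries. The part of neutrophils in the distance of AKO_30C replicate 3 from the other libraries was not tested.

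**Figure D4:**
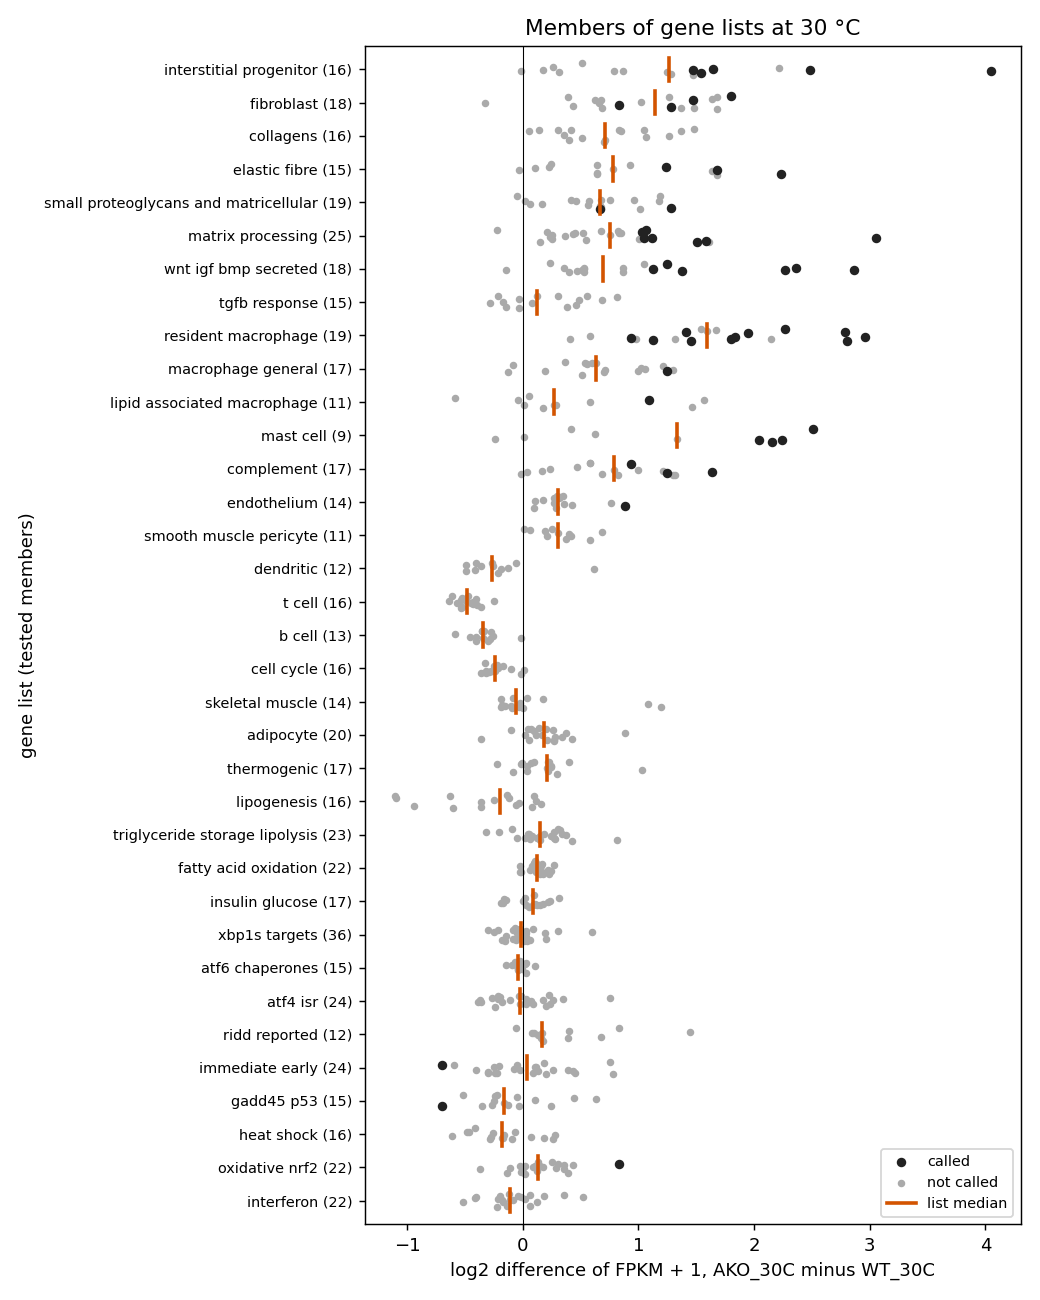
Each row is a gene list with its number of tested members in brackets, each point is the log2 difference of FPKM + 1 (AKO_30C minus WT_30C) of 1 member, black where called, and orange bars are list medians. The resident macrophage, mast cell and interstitial progenitor medians are 1.60, 1.34 and 1.26, the T cell median is -0.48, and the XBP1s target median is -0.02.

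No gene of the adipocyte lists was called. Of 20 tested adipocyte genes 1 was higher at a nominal p below 0.05 and the median was 0.18, against -0.05 for all genes, with sums of 36100.0, 42374 and 42788 FPKM in the AKO-labelled libraries, against 37682, 37525 and 33349 FPKM in the WT-labelled ones. Adipoq, the hormone adiponectin, had 1343, 1489.9 and 1508 against 1255, 1424 and 972 FPKM, overlapping between the groups. Lep, the hormone leptin, had 68.1, 41.1 and 109 FPKM in the AKO-labelled libraries, against 39.8, 43.3 and 27.3 FPKM in the WT-labelled ones, a log2 fold change of 0.88 that did not pass (adjusted p = 0.226), its highest value being in AKO_30C replicate 3. Among 12 adipokine genes, 4 were higher at a nominal p below 0.05 and the median was 0.21. Rarres2, which encodes chemerin, had 227, 249.8 and 278 against 143, 182 and 131 FPKM without overlap (log2 fold change 0.73, adjusted p = 0.102). Agt, angiotensinogen, had 6.25, 11.01 and 22.6 against 3.79, 3.39 and 1.803 FPKM (log2 fold change 1.71, adjusted p = 0.174). Ace, whose product converts angiotensin I, was itself called, with 21.1, 27.4 and 55.7 against 6.24, 8.15 and 8.71 FPKM and a log2 fold change of 1.93 (adjusted p = 0.0306).

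Thermogenic genes had 0 of 17 called, 2 higher at a nominal p below 0.05 and a median of 0.21, which ran from -0.23 to 0.40 with 1 library left out. Ucp1, the uncoupling protein of brown and beige fat, had 38.1, 6.401 and 4.2000 FPKM in the AKO-labelled libraries, against 11.8, 4.802 and 11.3 FPKM in the WT-labelled ones, with AKO_30C replicate 1 above all others and the rest overlapping. Fabp3, a fatty acid binding protein of oxidative fat, had 153, 48.8 and 62.8 against 42.4, 17.5 and 70.5 FPKM, highest in the same library (adjusted p = 0.318). The median of 22 fatty acid oxidation genes was 0.13 and that of 20 nuclear genes of oxidative phosphorylation was 0.02, with 0 called and 0 at a nominal p below 0.05 in either list. Without single libraries these medians ran from -0.09 to 0.26 and from -0.14 to 0.10. Both were below 0 without AKO_30C replicate 1, and the second also without WT_30C replicate 3, at -0.06.

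Lipogenic genes varied more within the groups than between them. Of 16 tested 0 were called, 1 was lower at a nominal p below 0.05 and the median was -0.19. Fasn, fatty acid synthase, had 770.4, 453 and 309.7 FPKM in the AKO-labelled libraries, against 958, 1394 and 297 FPKM in the WT-labelled ones. Acly, which makes cytosolic acetyl-CoA, had 200.4, 98.7 and 59.5 against 291, 389.9 and 73.8 FPKM, and Elovl6, a fatty acid elongase, had 49.9, 15.8 and 9.75 against 57.9, 70.6 and 20.3 FPKM. WT_30C replicate 3 was far below the other WT-labelled libraries in all 3 genes and AKO_30C replicate 1 was above the other AKO-labelled ones (adjusted p = 0.569, 0.476 and 0.362). The authors' deposited table nevertheless lists Acly as significant, with 120 FPKM in AKO and 252 FPKM in WT. Among other genes not called here, it also marks Elovl6, Lep, Ucp1, Fabp3, G0s2, Col1a1, Cd8a and Lat as significant. Triglyceride storage and lipolysis genes had 0 of 23 called and a median of 0.15. G0s2, an inhibitor of the main triglyceride lipase, had 371, 384 and 247 against 169, 187 and 203 FPKM without overlap (log2 fold change 0.82, adjusted p = 0.145). Insulin and glucose genes had 0 of 17 called, 0 at a nominal p below 0.05 and a median of 0.09. Regulators of adipogenesis had 0 of 16 called and a median of 0.27, with 6 higher at a nominal p below 0.05. Wnt10b, a Wnt ligand known to restrain adipogenesis, had 1.397, 1.61 and 3.91 against 0.554, 0.262 and 0.195 FPKM (log2 fold change 1.24, adjusted p = 0.118). Scd1, the main stearoyl-CoA desaturase, was left out of the test and had 3683, 1774 and 1963 against 3348, 3826 and 1199.7 FPKM, which overlapped.

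Genes of the unfolded protein response were close between the groups. Xbp1 had 122, 137 and 81.6 FPKM in the AKO-labelled libraries, against 89.5, 103 and 97.03 FPKM in the WT-labelled ones, overlapping (log2 fold change 0.20, adjusted p = 0.751), and its spliced form is not resolved in gene-level values. Of 36 tested XBP1s targets 0 were called, 1 was higher and 1 lower at a nominal p below 0.05, and the median was -0.02, or between 0.00 and 0.03 under the 3 other scalings. The promoters of Dnajb9 and Hspa5, of whose 250 bases before the RefSeq start 250 and 120 lie inside the GENCODE gene, are shown as those of a known XBP1s target and of the main chaperone of the endoplasmic reticulum.
Dnajb9 (chr12:44210069-44210318, minus strand): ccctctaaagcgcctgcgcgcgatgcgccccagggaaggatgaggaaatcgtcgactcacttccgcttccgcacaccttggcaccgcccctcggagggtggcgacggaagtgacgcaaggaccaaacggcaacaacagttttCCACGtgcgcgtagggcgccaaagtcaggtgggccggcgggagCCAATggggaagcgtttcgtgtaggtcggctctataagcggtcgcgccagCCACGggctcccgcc
Hspa5 (chr2:34771840-34772089, plus strand): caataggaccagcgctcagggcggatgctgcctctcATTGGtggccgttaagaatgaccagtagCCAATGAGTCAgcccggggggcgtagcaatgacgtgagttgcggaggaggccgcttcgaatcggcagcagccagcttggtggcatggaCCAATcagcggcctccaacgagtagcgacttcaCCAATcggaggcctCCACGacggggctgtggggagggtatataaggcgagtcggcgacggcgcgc
Hspa5 held 1 match to the endoplasmic reticulum stress response element, which stood in 0.113% of all promoters and in 0 of the 84 promoters of genes called higher. In the Hspa5 window a CCAAT and a TGANTCA match overlap. Dnajb9 held 2 CCACG and 1 CCAAT matches, and no match says only that these letters are not in this window.

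Dnajb9, an endoplasmic reticulum co-chaperone that restrains IRE1alpha, had 18.7, 12.7 and 16.7 FPKM in the AKO-labelled libraries, against 19.4, 16.7 and 19.7 FPKM in the WT-labelled ones. Hspa5, which encodes BiP, had 124, 105 and 109 against 124, 110.4 and 112 FPKM. Both overlapped between the groups, with log2 fold changes of -0.21 and -0.04 (SE 0.16 and 0.09, adjusted p = 0.556 and 0.881), and the Hspa5 difference turned to 0.0016 and 0.0145 after upper quartile and equal sum scaling. Sec61b, a subunit of the translocation channel, had 178, 184 and 205 against 223, 208 and 269 FPKM (log2 fold change -0.30, adjusted p = 0.271), and Kdelr3, a retrieval receptor, had 5.19, 4.59 and 5.29 against 2.83, 3.05 and 3.03 FPKM (log2 fold change 0.60, adjusted p = 0.128). Those 2 genes are the ones at a nominal p below 0.05, and they point in opposite directions. ATF6 targets and chaperones had 0 of 15 called and a median of -0.04, and ATF4 targets of the integrated stress response had 0 of 24 called and a median of -0.02, both medians being above 0 after upper quartile scaling and, at 0.01 and 0.03, after equal sum scaling. Mthfd2, an ATF4 target of mitochondrial folate metabolism, had 15.7, 13.01 and 12.7 against 18.2, 16.8 and 18.8 FPKM without overlap (log2 fold change -0.36, adjusted p = 0.311).

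Transcripts reported to be cleaved by IRE1alpha, the decay known as RIDD, had 0 of 12 called and a median of 0.17. Of these, 5 were higher at a nominal p below 0.05, against 6.76% of all tested genes. Bloc1s1, the best known of them, had 149, 176 and 173 against 146, 161 and 135 FPKM, overlapping between the groups (log2 fold change 0.17, adjusted p = 0.470). Scara3 had 5.53, 6.39 and 13.4 against 2.42, 1.99 and 2.33 FPKM and Col6a1 60.9, 58.5 and 76.8 against 34.9, 47.8 and 27.9 FPKM (log2 fold changes 1.45 and 0.83, adjusted p = 0.112 and 0.125). Of the 5, Sparc, Col6a1 and Pdgfrb are known products of stromal cells, whose lists were higher in the same libraries, and the part of stromal RNA in these values was not tested.

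**Figure D5:**
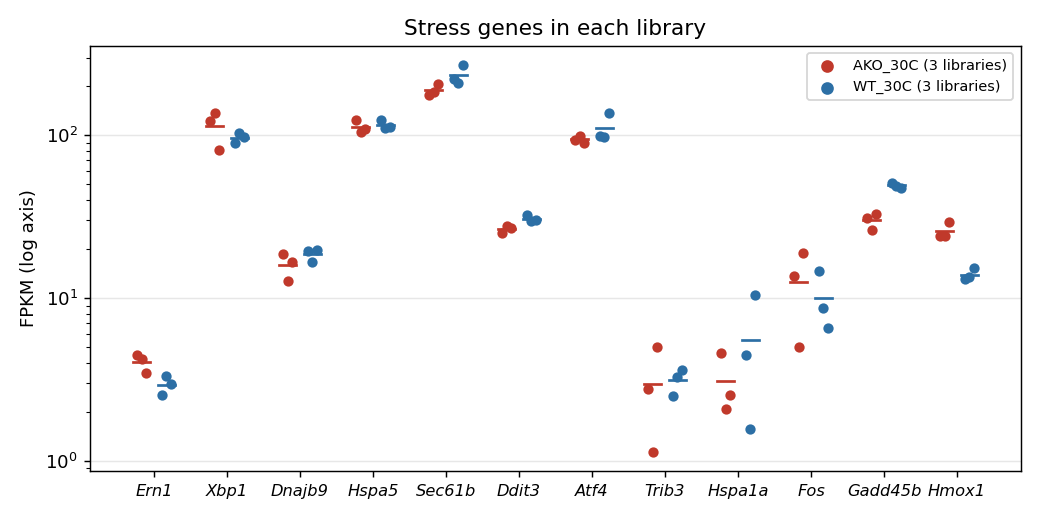
Points are the FPKM of each library on a log axis and short lines are group means, with the AKO_30C libraries left of the WT_30C ones. Gadd45b and Hmox1 are the called genes of this plot, at 31.0, 26.4 and 32.8 against 51.1, 48.7 and 47.7 FPKM for Gadd45b, and Hspa5 overlaps between the groups.

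Of other stress genes, Gadd45b and Hmox1 were called. Gadd45b, a stress-inducible gene of growth arrest and demethylation, had 31.01, 26.4 and 32.8 FPKM in the AKO-labelled libraries, against 51.1, 48.7 and 47.7 FPKM in the WT-labelled ones, a log2 fold change of -0.70 (SE 0.11, limma adjusted p = 0.0278). It was the 1 gene called of 24 immediate early genes, whose median was 0.03, and of 15 genes of growth arrest and p53, whose median was -0.16. Pmaip1, a p53 target that promotes apoptosis, had 4.11, 3.74 and 3.51 against 5.76, 5.54 and 6.22 FPKM without overlap (log2 fold change -0.52, adjusted p = 0.116). Heat shock genes had 0 of 16 called, 2 lower at a nominal p below 0.05 and a median of -0.18. Hspe1, the mitochondrial co-chaperonin, had 224, 226 and 218 against 287, 251 and 269.8 FPKM (log2 fold change -0.27, adjusted p = 0.208). The oxidative stress list had 1 of 22 called, Hmox1, and a median of 0.13. Hypoxia genes had 0 of 13 called and a median of 0.02, and clock genes 0 of 14 called and 0.11.

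The 8 genes called lower in AKO-labelled fat had small differences and fell in no single list. Besides Tnf and Gadd45b they were Gh, Lcn4, Hcn3, H2-K2, Adam6b and Bcl2. Gh, growth hormone, whose main source is the pituitary, had 1.34, 0.293 and 1.06 FPKM in the AKO-labelled libraries, against 2.39, 3.17 and 2.93 FPKM in the WT-labelled ones and the largest decrease, -1.05 (SE 0.21, limma adjusted p = 0.0429). Lcn4, a lipocalin, had 0.974, 1.08 and 1.36 against 3.59, 2.79 and 2.96 FPKM, and Hcn3, a pacemaker channel subunit, had 1.98, 1.59 and 1.57 against 2.91, 3.61 and 4.398 FPKM. These 3 genes were at a few FPKM in WT-labelled fat. H2-K2, a class I histocompatibility gene with close copies, had 30.2, 33.1 and 32.3 against 49.1, 44.2 and 57.9 FPKM, and Adam6b, which lies in the immunoglobulin heavy chain region and has a close copy, had 1.16, 1.01 and 0.739 against 1.996, 1.84 and 2.23 FPKM. Bcl2, an inhibitor of apoptosis, had 11.1, 10.3 and 9.48 against 15.5, 14.8 and 15.9 FPKM, a log2 fold change of -0.54 (adjusted p = 0.0499). The summed level of the T cell list was lower in all 3 AKO-labelled libraries than in any WT-labelled one, whereas that of the B cell list overlapped, and the part of these cells in the values of H2-K2, Adam6b and Bcl2 was not tested.

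Of the 102 higher genes 56 were in none of the gene lists. Among them were secreted or surface enzymes, namely Dpep1 and Dpep2, dipeptidases, Pon1, paraoxonase, Qpct, glutaminyl cyclase, Rnase4, a ribonuclease, and Smpd3, a sphingomyelinase, with log2 fold changes of 1.49, 0.80, 1.59, 1.48, 1.60 and 1.91. Rnase4 had 55.4, 52.6 and 107 against 19.4, 23.4 and 22.5 FPKM. Signalling ligands included Penk, the enkephalin precursor, with 6.805, 7.3999 and 13.6 against 1.06, 2.01 and 3.37 FPKM, Ntn1, a guidance cue, with 3.48, 2.88 and 5.06 against 0.961, 1.597 and 0.901 FPKM, and Edn1, the vasoconstrictor endothelin, with 1.99, 1.69 and 3.89 against 0.766, 0.406 and 0.773 FPKM. Serpinf1, which encodes the antiangiogenic protein PEDF, had 79.95, 74.6 and 122 against 36.5, 45.4 and 27.5 FPKM and was among the more abundant of them. Tnfrsf1a, the main receptor of Tnf, had 71.95, 74.6 and 80.2 FPKM in the AKO-labelled libraries, against 52.6, 55.7 and 50.5 FPKM in the WT-labelled ones, a log2 fold change of 0.51 (adjusted p = 0.0429). Tnf and its receptor were thus called in opposite directions. Tnfsf12, which encodes the cytokine TWEAK, had 18.03, 17.6 and 26.4 against 12.8, 10.999 and 11.7 FPKM and a log2 fold change of 0.74. Ninj1, a protein of membrane rupture, had 47.96, 44.4 and 58.97 against 24.5, 24.9 and 29.8 FPKM and 0.90, and Pros1, the anticoagulant protein S, had 11.5, 8.84 and 14.4 against 6.52, 6.57 and 6.698 FPKM and 0.70. Lrg1, a secreted glycoprotein, had 166, 248 and 231 against 92.2, 135 and 101 FPKM, and Alas1, the first enzyme of haem synthesis, had 140.2, 126 and 138 against 83.04, 102 and 75.2 FPKM. In Lrg1 and Alas1 AKO_30C replicate 3 was not the highest library.

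Further matrix and secreted products called higher were Ecm1, Lrrc17, Olfml2b, Olfml3 and Srpx, with log2 fold changes of 1.70, 1.67, 1.62, 1.06 and 1.14. Membrane and cytoplasmic products were Tmem100, Tmeff2, Tm4sf1, Arl4d, a small GTPase, and Dnm1, a dynamin, with 1.36, 1.32, 0.65, 1.38 and 1.27. The smallest differences called were those of Man1c1, a mannosidase, Fmo1, a flavin monooxygenase, Vat1, Tmem106a and Lix1l, between 0.47 and 0.62. Krtdap, an epidermal protein, was low, with 2.49, 4.95 and 3.61 against 0.666, 0.898 and 0 FPKM. Meg3 and Rian, long noncoding RNAs of an imprinted cluster on chromosome 12, both rose. Meg3 had 27.3, 24.5 and 32.8 against 13.9, 16.2 and 13.8 FPKM and Rian 8.19, 6.03 and 8.83 against 3.8996, 3.57 and 3.04 FPKM, with log2 fold changes of 0.89 and 0.94, and they lie 32.2 kb apart. In all, 10 pairs of called genes lay within 250 kb of each other, 6 of them on chromosome 11. Those 6 are the pairs among Ccl9, Ccl6 and Wfdc17 and among Vat1, Tmem106a and Arl4d. Chromosome 11 had 17 of 1049 tested genes called (1.62%) and chromosome 1 had 12 of 707 (1.7%), against 0.861% of all. Whether called genes lie closer together than other genes was not tested.

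Around Ern1, the locus named in the genotype, 24 of 31 genes within 500 kb were tested and 2 were called, against 0.861% of all tested genes. Whether neighbours of Ern1 differ more often than other genes was not tested. Ace, 405 kb away, was higher, and Gh, 92.8 kb away, was lower, whereas the nearest tested neighbours Icam2, at 6.58 kb, and Tex2, at 14.3 kb, had log2 fold changes of -0.22 and 0.06 and adjusted p of 0.363 and 0.824. Without a call, the groups also did not overlap for Cyb561, which was higher, and for Cep95, Limd2, Polg2 and Strada, which were lower. The groups did not overlap for 19.1% of all tested genes.

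The authors' deposited table for 30 °C, made from the same libraries and so no independent evidence, lists 694 genes as higher and 182 as lower in AKO, of which 746 are marked significant. Of the 110 genes called here, 105 (95.5%) are marked significant there, which is 14.1% of those 746. The highest fold changes of the authors' deposited table belong to Atp1a4, Myh7, Duox1, Mrgprg and Pi16, and the lowest to Ctse, Zglp1, Eps8l1, Tlr1 and 1600023N17Rik. Atp1a4 had 2.14, 1.58 and 0.0329 against 0.0194, 0.0168 and 0.0547 FPKM and Myh7, a slow myosin, 0.818, 0.08899 and 3.07 against 0.0322, 0.0912 and 0.0241 FPKM, so that 1 AKO-labelled library was at the level of WT in each. Ctse, an endosomal cathepsin, had 0.986, 1.79 and 1.58 against 2.07, 2.01 and 24.5 FPKM, Eps8l1 0.25998, 0.214 and 5.44 against 15.6, 9.13 and 0.166 FPKM and Tlr1, a receptor for bacterial lipoproteins, 3.599, 3.73 and 2.77 against 5.05, 3.89 and 32.4 FPKM. None of these 3 was called here (adjusted p = 0.433, 0.504 and 0.423).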

How the data were processed

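Per the labels' protocols, RNA was extracted from flash-frozen fat with TRIzol and libraries followed standard Illumina protocols. Per the submitters' processing notes, bcl2fastq, FastQC 0.11.3, TopHat2 2.0.14, Cufflinks 2.2.1 and build mm10 were used, while options and annotation are not given in the sources used here. The deposited gene table, named a count, holds FPKM made by the authors, since its nonzero values include 99.986% that are not whole and no steps of single reads were found, so depth and counting error are unknown and no count test was run. The authors' deposited comparison table at 30 °C gives group FPKM, a log2 fold change without pseudocount, a test score, and the authors' p-value and q-value, per the file headers.

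From these values log2(FPKM + 1) was computed for genes at 1 FPKM or more in at least 3 of the 6 libraries at 30 °C. The test left out Scd1 and Snora81, each of which is at 0 in part of the 12 libraries while reaching 1000 FPKM elsewhere. limma 3.58.1 in R 4.3.3 fitted 1 mean per group over all 12 libraries with a variance trend, and tested AKO_30C minus WT_30C two-sided with Benjamini-Hochberg adjustment at 0.05 over all genes. The fit was also run on simulated data, with independent noise for each gene and no library standing apart. That run therefore cannot speak to calls that depend on single libraries. Each group had 3 mice per the series description, and nothing says how the libraries were spread over batches. Gene lists were described by counts and medians beside those of all genes, without a test of the list. The members and the 54 gene lists were chosen with earlier results of these data known. The rule for named genes took Ern1 and Xbp1, all called genes (predicted genes left out, and 2 called genes not reported here), members of the gene lists, and the 5 highest and 5 lowest genes of the authors' deposited table, with values per library for list members and up to 30 called genes of the largest fold change. Values of other called genes, of Scd1 and of the neighbours of Ern1 were chosen after they were seen. Positions are from GENCODE M21 (GRCm38) and promoters from RefSeq (GRCm38.p6). Whether counting used the strand is not given in the sources used here, so overlapping genes are uncertain. Alternatives were other filters, pseudocounts, scalings, variance estimates, a replicate block, the 6 libraries alone, and each library left out. Figures used Python 3.11.15 and matplotlib 3.10.9.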

Additional observations from a re-analysis of the deposited data

How the results depend on the processing

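The filter at 5 FPKM left 86 of the 110 called genes in the test, 83 of those called higher and 3 of those called lower. The counts of higher and lower calls, 102 and 8 as reported, were 120 and 4 with the 6 libraries at 30 °C alone, 1 and 0 with no filter on low values, 117 and 5 with a pseudocount of 0.1, 112 and 5 with 0.5, 46 and 3 with a robust variance estimate, 65 and 3 after median ratio scaling, and 125 and 4 after equal sum scaling. Upper quartile scaling, no variance trend and the filter at 5 FPKM left each count within 1.5 times, and the cause of the other shifts was not tested. With the filter at 5 FPKM the genes called lower were in part other genes, so that the similar count does not show the same set. Of the 110 genes, 83 were still called with the 6 libraries alone, 68 after median ratio scaling, 49 with the robust estimate and 1 with no filter. With each library left out in turn the counts ran from 0 to 31 higher and from 0 to 1 lower. The labels do not say whether replicate numbers pair the samples. Same-numbered libraries had correlations of their deviations from the group means of 0.137, -0.0227 and 0.173. These 3 values cannot decide whether such libraries shared a batch. The fit with the replicate block called 1 gene higher and 0 lower, with 2222 genes at a nominal p below 0.05, against 1860 in the main fit. Among named genes that were not called, the log2 fold change of Hspa5 turned to 0.0016 after upper quartile scaling and 0.0145 after equal sum scaling and ran from -0.11 to 0.015 with 1 library left out, and that of Ucp1 ran from -0.64 to 0.81, below 0 without AKO_30C replicate 1 or WT_30C replicate 2. Over all scalings the median of all genes lay between -0.05 and -0.00. Depth is unknown, and 3 libraries per group limit the precision, so a gene that missed the threshold is not shown to be equal between the groups.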
